A study of Mus musculus with 12 samples.

Results

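The neuronal and progenitor cytoskeleton is covered here by 10 genes, the neuronal filament genes Prph, Nefl, Nefm, Nefh and Ina, the progenitor and mesenchymal filament genes Nes and Vim, and the neuronal tubulin Tubb3, the microtubule-associated protein Map2 and the growth cone protein Gap43. They were chosen by name, and all 23 probe sets that the platform annotation gives to these symbols were taken, out of 45101 probe sets in the table and 18193 genes with a symbol of their own. RNA had been measured in B16-F10 cells, an established pigmented mouse melanoma line, on 1-colour arrays. Cells received pMES carrying chicken FoxD3-VP16, pMES carrying chicken FoxD3, or empty pMES. In FoxD3-VP16 the transcriptional activation domain of the viral protein VP16 stands in place of the C-terminal repression domain of FoxD3. Each construct was driven by the chick beta-actin promoter, which is active in most cell types, and all sorted cells of the 3 groups also made EGFP. Probe sets for the chicken transgenes were not used here, so the levels below do not check the labels. At 24 h the cells with EGFP were sorted and measured, on 4 arrays per group. The labels do not say that replicates came from separate cultures, so p-values reflect only how these samples vary, and that variation may be technical.

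Intermediate filaments are rope-like polymers whose subunits differ by cell type. Peripherin, the neurofilament proteins and alpha-internexin build the filaments of axons, nestin is made in neural progenitors and activated glia, and vimentin is the usual filament of mesenchymal and many melanoma cells. Class III beta-tubulin and MAP2 belong to neuronal microtubules, and GAP43 to growing axon tips. FoxD3, a forkhead protein known mainly as a repressor, is active in the early neural crest, from which peripheral neurons, glia and pigment cells descend.

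RNA of the neuronal filament gene Prph was 4.08-fold higher in FoxD3 cells than in empty vector cells. In FoxD3-VP16 cells Prph was 3.65-fold lower than in FoxD3 cells, and the progenitor filament gene Nes was 6.22-fold lower. Each fold is that of the gene's brightest probe set. The other Nes probe sets were 1.86-fold and 2.43-fold lower between the constructs. No change of the other Prph probe sets, all dim, passed the test. The differences of Vim, Tubb3 and Map2 were at most 1.74-fold in each comparison, and without the replicate number as a block none passed limma's test on the quantile-normalized values of all 12 arrays weighted equally. Other weights or scalings gave calls for them, and those values stand with the processing alternatives. The other neuronal filament genes and Gap43 were too dim to test. Of the 10 genes, 5 passed the filter on brightness, and of the 23 probe sets, 8 did. The filter was a mean log2(intensity + 16) over all 12 arrays of at least 5.98, below which the lowest 40% of genes lay. Prph passed it through its FoxD3 arrays, with means of 5.72 in FoxD3-VP16 cells and 5.56 in empty vector cells. Its folds and calls are therefore a description. In a bulk measurement, fewer cells making a gene and less RNA per cell cannot be told apart.

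**Figure D1:**
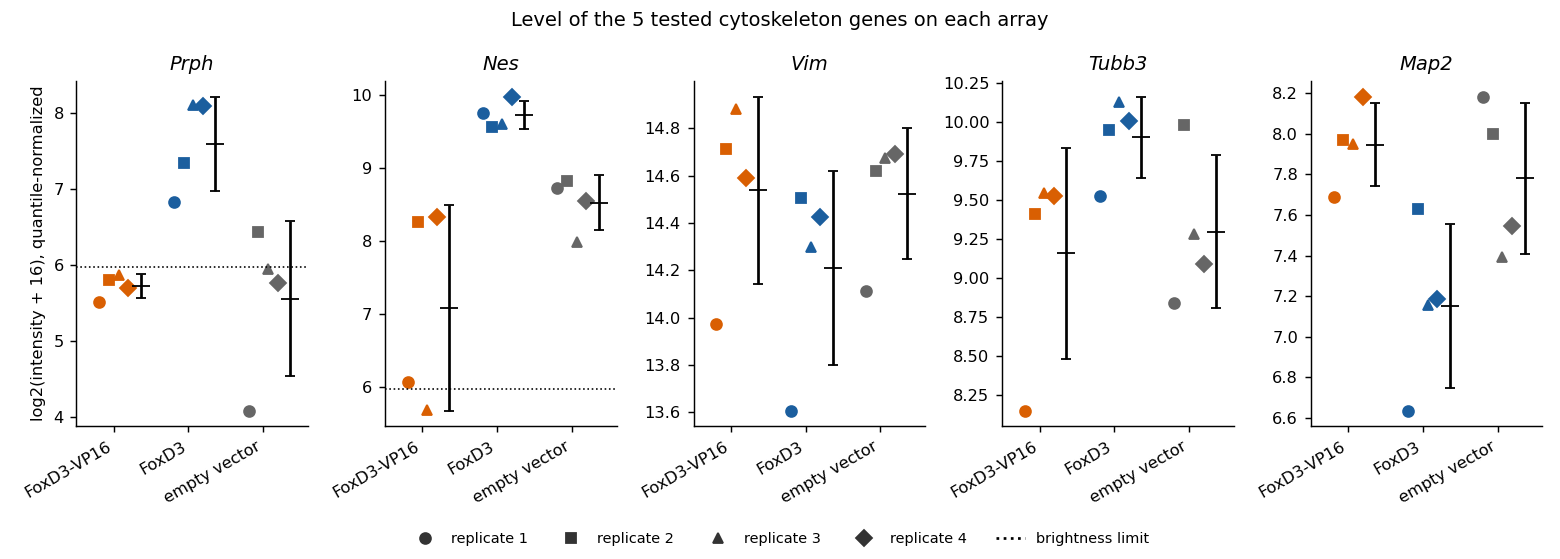
Level of the 5 tested genes on each array, as quantile-normalized log2(intensity + 16), in FoxD3-VP16, FoxD3 and empty vector cells; marker shapes give the replicate number, bars the mean and SD of 4 arrays, and the dotted line the brightness limit of 5.98. The 4 FoxD3 arrays lie above all others for Prph and Nes.

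The arrays numbered 1 in each group stood apart from the rest. Their log2 level of Gapdh at the 3′ end exceeded that at the 5′ end, which reads RNA quality, by 0.56 to 0.77 on these 3 arrays, and the same difference was -0.25 to 0.04 on the 9 others. Each group holds an array of every number, and deviations from the group means correlated at 0.37 to 0.67 in the 12 pairs of arrays with the same number and at -0.51 to 0.54 in the 36 pairs with different numbers. The numbers were therefore taken to pair the samples. For the 10 genes, results from a fit with the replicate number as a block stand beside the unblocked results where they change a call. For the other gene lists such changes are given in part. The 3 comparisons share arrays: the empty vector arrays serve both constructs, and the FoxD3 arrays serve 2 comparisons.

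Start-site sequences are shown for the tested filament genes and Tubb3, so that genes whose differences ran in opposite directions can be compared. They come from RefSeq on GRCm38.p6, run from 250 bases before to 50 bases after the start, and lie on the + strand. The start used for Prph lies inside the gene's annotated span, and those of the other 3 genes are the first base of theirs. Of the 10 genes, 6 had an entry. The motifs searched on both strands were TATAAA, the TATA box, CCAAT, the CCAAT box, and TGTTT, the core of the forkhead recognition sequence. Capitals mark matches to any of them, on either strand, and no matches overlapped.
Prph (chr15:99054924-99055223): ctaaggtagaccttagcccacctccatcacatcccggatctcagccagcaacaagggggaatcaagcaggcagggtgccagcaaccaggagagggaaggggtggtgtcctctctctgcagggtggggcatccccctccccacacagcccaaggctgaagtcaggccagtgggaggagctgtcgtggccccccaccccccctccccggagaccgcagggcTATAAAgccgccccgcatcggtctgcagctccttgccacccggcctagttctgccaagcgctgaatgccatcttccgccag
Nes (chr3:87970843-87971142): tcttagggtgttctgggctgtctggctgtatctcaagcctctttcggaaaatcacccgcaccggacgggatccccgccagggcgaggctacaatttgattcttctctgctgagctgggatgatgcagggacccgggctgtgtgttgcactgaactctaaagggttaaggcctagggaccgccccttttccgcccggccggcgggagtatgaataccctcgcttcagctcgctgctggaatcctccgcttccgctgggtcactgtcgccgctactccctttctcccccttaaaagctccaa
Vim (chr2:13574061-13574360): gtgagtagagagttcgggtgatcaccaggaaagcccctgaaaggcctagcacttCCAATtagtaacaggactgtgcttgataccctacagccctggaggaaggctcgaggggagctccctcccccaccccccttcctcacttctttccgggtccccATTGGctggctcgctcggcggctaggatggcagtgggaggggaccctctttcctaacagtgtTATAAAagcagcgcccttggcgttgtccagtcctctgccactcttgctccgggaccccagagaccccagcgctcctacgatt
Tubb3 (chr8:123411303-123411602): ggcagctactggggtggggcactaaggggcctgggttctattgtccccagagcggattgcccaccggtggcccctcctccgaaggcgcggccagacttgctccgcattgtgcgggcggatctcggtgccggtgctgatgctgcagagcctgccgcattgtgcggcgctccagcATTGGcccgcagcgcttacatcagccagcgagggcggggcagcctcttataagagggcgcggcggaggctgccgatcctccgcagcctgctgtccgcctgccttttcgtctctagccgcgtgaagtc
Prph held TATAAA 31 bases before its start and Vim 32 bases before, a motif found in 13.62% of the 32851 promoters of the table. Vim also held CCAAT at -196 and, on the opposite strand, at -94, and Tubb3 held it on the opposite strand at -77; 37.41% of promoters hold it. TGTTT is present in 50.54% of promoters, and among the 6 genes only the window of Ina held it, at -226. The Nes window held none of these 3 motifs. These matches describe the letters of the windows only.

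Prph (probe set 1422530_at, chr15:99053579-99058978 on GRCm38.p6) encodes peripherin, the filament protein of peripheral and sensory neurons. Its log2 levels were 5.51, 5.80, 5.87 and 5.70 in FoxD3-VP16 cells, 6.82, 7.34, 8.10 and 8.09 in FoxD3 cells, and 4.09, 6.43, 5.94 and 5.77 in empty vector cells. As deposited, the intensities were 55.6, 35.7, 34.4 and 28.1 in FoxD3-VP16 cells, 118, 144, 257 and 258 in FoxD3 cells, and 1.66, 62.4, 37.6 and 34.7 in empty vector cells. All 4 FoxD3 arrays lay above every array of the other groups, while the FoxD3-VP16 and empty vector arrays overlapped. On the log2 scale after quantile normalization, array 1 of the empty vector was far below its group and array 1 was the lowest of the 4 in both other groups, whereas as deposited array 1 was the highest of the FoxD3-VP16 arrays. Only 5 of the 12 arrays were above the brightness limit, the 4 FoxD3 arrays and array 2 of the empty vector. Prph therefore entered the test through the FoxD3 arrays, and a gene that does so had to differ. Its p-values, intervals, calls and counts after that filter are therefore read as a description.

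With FoxD3, Prph was higher than with the empty vector by a log2 difference of 2.03 (SE 0.47, 95% interval 1.02 to 3.04, limma adjusted p = 0.0291, n = 4 each). The difference was positive in 4 of 4 same-number pairs and ranged over 0.91 to 2.73. With FoxD3-VP16 it was lower than with FoxD3 (log2 difference -1.87, SE 0.47, 95% interval -2.88 to -0.86, limma adjusted p = 0.0240), again in 4 of 4 pairs. Between FoxD3-VP16 and the empty vector the log2 difference was 0.16, with an interval of -0.85 to 1.17 and a limma adjusted p of 0.974. Leaving out FoxD3 array 2, 3 or 4, or empty vector array 3 or 4, ended the call against the empty vector (adjusted p up to 0.111, log2 change 1.85 to 2.15). Leaving out FoxD3-VP16 array 2, 3 or 4, or FoxD3 array 3 or 4, ended the call between the constructs (adjusted p up to 0.0897). Without the 3 arrays numbered 1 the differences were 1.95 and -2.22, both called (limma adjusted p = 0.00414 and 0.000930).

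The other 3 probe sets annotated as Prph did not show changes of this size. All were dim, with FoxD3 means of 4.48 to 5.64 and empty vector means of 5.16 to 5.33 on the log2 scale. For 1420256_x_at, 1449796_at and 1449797_x_at the FoxD3 minus empty vector changes were 0.42, -0.68 and -0.43. The FoxD3-VP16 minus FoxD3 changes were -0.51, 0.81 and 0.30, so only 1420256_x_at shared the signs of 1422530_at. No change of these probe sets passed the test in any comparison. The platform table lists no accession for these 3, nor for Nes 1449022_at and 1418289_at or Map2 1434194_at, while 1422530_at carries a RefSeq transcript of the gene. Whether the 3 dim probe sets detect Prph was not checked here. The mean of all Prph probe sets fell below the brightness filter, so no test was made on it. Tested among all 34945 probe sets with no filter, 1422530_at had an adjusted p of 0.0547 for FoxD3 against the empty vector (0.00354 with the block) and of 0.0444 for FoxD3-VP16 against FoxD3.

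Nes (chr3:87971093-87980451) encodes nestin, the filament protein of neural stem and progenitor cells. On its brightest probe set, 1449022_at, the log2 levels were 6.08, 8.26, 5.69 and 8.33 in FoxD3-VP16 cells, 9.75, 9.56, 9.61 and 9.98 in FoxD3 cells, and 8.73, 8.83, 7.99 and 8.55 in empty vector cells. The deposited intensities were 89.8, 294, 28.0 and 308 in FoxD3-VP16 cells, 783, 753, 792 and 1027 in FoxD3 cells, and 375, 438, 231 and 371 in empty vector cells. The FoxD3 arrays were tightly grouped and lay above all 8 others. The FoxD3-VP16 arrays split into a low pair, numbered 1 and 3, and a pair, numbered 2 and 4, that reached the range of the empty vector arrays.

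Between the constructs, given throughout as FoxD3-VP16 minus FoxD3, Nes was lower with FoxD3-VP16 than with FoxD3 (log2 difference -2.64, SE 0.52, 95% interval -3.75 to -1.52, limma adjusted p = 0.00594), in 4 of 4 pairs, with pair differences from -3.92 to -1.30. The call held in 25 of 25 alternative settings, with log2 changes of -3.03 to -1.60 and limma adjusted p-values of 0.000212 to 0.0290. Against the empty vector, Nes differed by 1.20 with FoxD3 (SE 0.52, 95% interval 0.08 to 2.31, limma adjusted p = 0.267), a difference called with the block (adjusted p = 0.0419) and positive in 4 of 4 pairs. With FoxD3-VP16 it differed from the empty vector by -1.44 (95% interval -2.56 to -0.32, limma adjusted p = 0.321), called with the block (adjusted p = 0.0309) and negative in 4 of 4 pairs. The pairs ranged from -2.66 to -0.23 in that comparison. Without the arrays numbered 1, neither difference from the empty vector was called with the block (1.28, adjusted p = 0.0643; -1.10, adjusted p = 0.115), and the difference between the constructs was -2.38 (adjusted p = 0.0290 without and 0.00231 with the block).

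Both other Nes probe sets ran in the same direction between the constructs. On 1418289_at the log2 levels were 8.36, 7.30, 7.93 and 7.82 in FoxD3-VP16 cells, 8.67, 8.71, 8.92 and 8.68 in FoxD3 cells, and 9.0, 7.66, 7.83 and 8.50 in empty vector cells. FoxD3-VP16 array 1, low on the brightest probe set, was the highest of its group here. The FoxD3-VP16 minus FoxD3 change was -0.89 on 1418289_at and -1.28 on the dim 1453997_a_at, and both were called only with the block (adjusted p = 0.0163 and 0.0344 among all probe sets; 0.152 and 0.129 without it). The mean of the 3 Nes probe sets was lower in FoxD3-VP16 than in FoxD3 cells (log2 difference -1.60, limma adjusted p = 0.000432) and higher in FoxD3 than in empty vector cells by 0.97 (limma adjusted p = 0.0215). For FoxD3-VP16 against the empty vector this mean changed by -0.64 (limma adjusted p = 0.279). In that comparison 1418289_at changed by -0.39 and 1453997_a_at by -0.07, neither called with or without the block, so the call with the block rests on 1449022_at alone, whose adjusted p with the block was 0.0523 among all probe sets. Direction was thus shared between the constructs and size was not, with the largest change on 1449022_at.

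**Figure D2:**
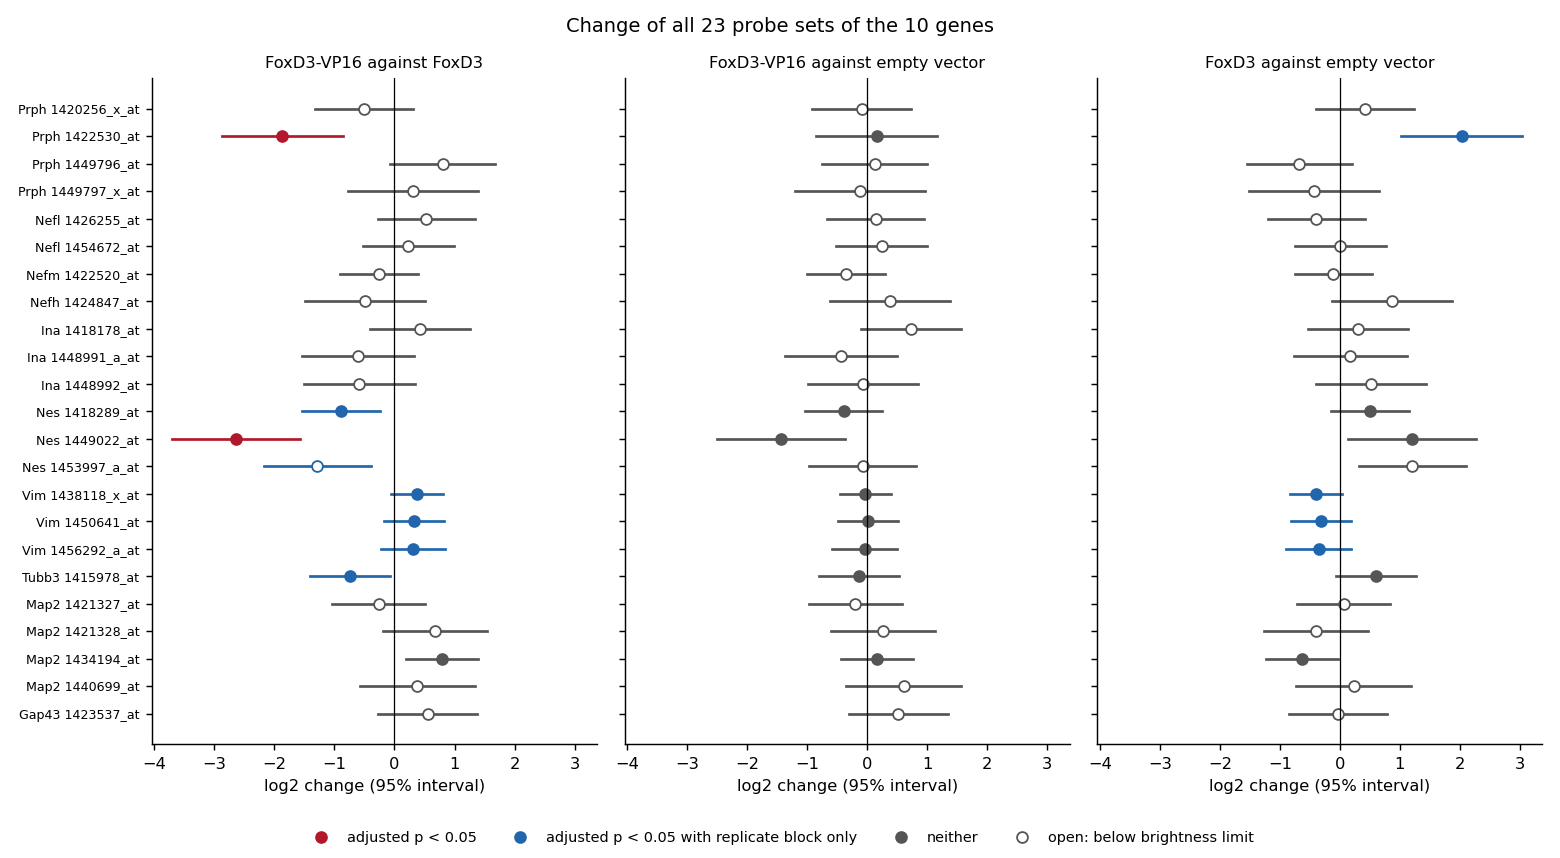
Log2 change with its 95% interval of each of the 23 probe sets in the 3 comparisons, from the fit of all 34945 probe sets without the block; open circles mark probe sets below the brightness limit of 5.98, red an adjusted p under 0.05, and blue an adjusted p under 0.05 only with the replicate block. Red appears for 1 probe set each of Prph and Nes between the constructs.

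Vim (chr2:13574311-13582826) encodes vimentin, the filament protein of mesenchymal cells. On its brightest probe set, 1450641_at, the log2 levels were 13.97, 14.71, 14.88 and 14.59 in FoxD3-VP16 cells, 13.61, 14.51, 14.30 and 14.42 in FoxD3 cells, and 14.11, 14.62, 14.67 and 14.69 in empty vector cells. Array 1 was the lowest of every group, and the groups overlapped. Within numbers, FoxD3 was the lowest of the 3 in all 4 sets.

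With FoxD3, Vim differed from the empty vector by -0.31 (95% interval -0.81 to 0.18, limma adjusted p = 0.584), and with FoxD3-VP16 it differed from FoxD3 by 0.33 (95% interval -0.17 to 0.82, limma adjusted p = 0.446). With the block both were called (adjusted p = 0.00835 and 0.00369), in 4 of 4 pairs each, with intervals of -0.47 to -0.16 and 0.17 to 0.49. All 3 Vim probe sets gave the same signs, with changes of -0.40 to -0.31 and of 0.31 to 0.37, and each passed with the block among all probe sets (adjusted p = 0.00545, 0.0247 and 0.0238 for FoxD3 against the empty vector; 0.00494, 0.0113 and 0.0304 between the constructs). FoxD3-VP16 minus empty vector was 0.02, with an interval of -0.48 to 0.51 and an adjusted p of 0.996. Without the arrays numbered 1 the blocked changes were -0.22 (adjusted p = 0.0497) and 0.26 (adjusted p = 0.0140). In the fit without the block, leaving out FoxD3 array 1 alone gave -0.11 against the empty vector and 0.12 between the constructs, and leaving out FoxD3-VP16 array 1 gave 0.50 between the constructs. As each array was left out these changes ranged over -0.44 to -0.11 and 0.12 to 0.50.

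The Vim probe sets disagreed on the arrays numbered 1. On 1450641_at those 3 arrays were at 13.61 to 14.11, below the 9 others at 14.30 to 14.88. On 1456292_a_at they were at 14.35 to 14.67, above the others at 13.50 to 14.07, and on 1438118_x_at at 14.06 to 14.58, against 13.58 to 14.14 on the others, each the highest of its own group. The arrays with the raised Gapdh 3′ minus 5′ difference were therefore low on 1 Vim probe set and high on the other 2, and the part of RNA quality in this was not tested.

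**Figure D3:**
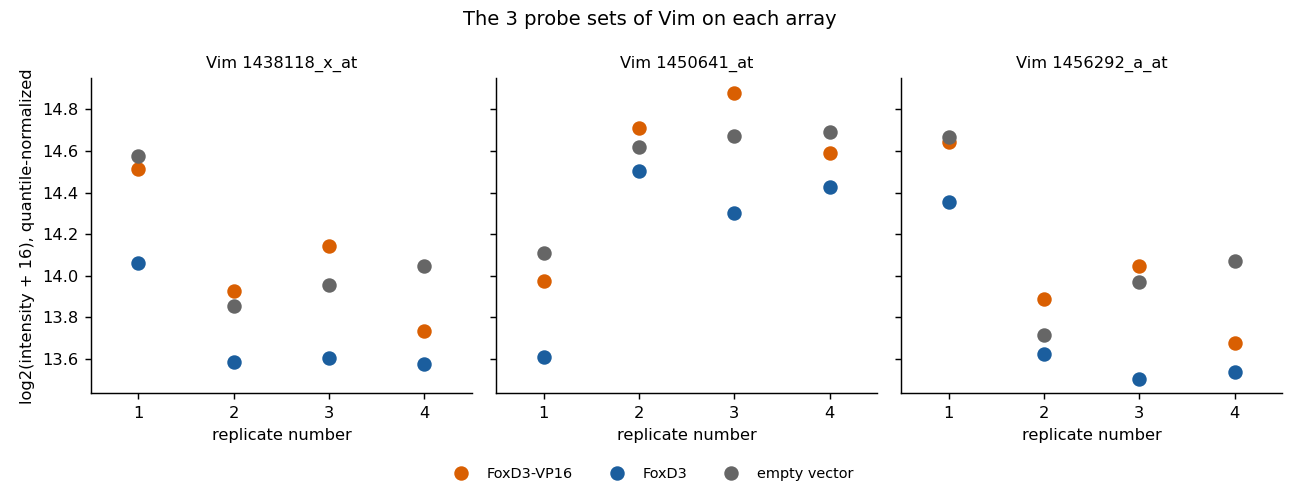
Quantile-normalized log2(intensity + 16) of the 3 Vim probe sets by replicate number in FoxD3-VP16, FoxD3 and empty vector cells. Number 1 is low on 1450641_at and high on the others, and the FoxD3 point is the lowest of its number in every panel.

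Tubb3 (1415978_at, chr8:123411553-123422015) encodes class III beta-tubulin, the tubulin of neuronal microtubules. The log2 levels were 8.15, 9.41, 9.54 and 9.53 in FoxD3-VP16 cells, 9.52, 9.95, 10.12 and 10.00 in FoxD3 cells, and 8.84, 9.98, 9.28 and 9.09 in empty vector cells. Array 1 was lowest in each group, and empty vector array 2 reached the FoxD3 range, so the groups overlapped. Tubb3 differed by 0.60 between FoxD3 and the empty vector (95% interval -0.09 to 1.29, limma adjusted p = 0.394), and was called with the block (adjusted p = 0.0407), with 3 of 4 pairs positive. Between FoxD3-VP16 and FoxD3 the difference was -0.74 (95% interval -1.43 to -0.05, limma adjusted p = 0.180), called with the block (adjusted p = 0.00996), in 4 of 4 pairs. As each array was left out, these changes ranged over 0.45 to 0.83 and -0.87 to -0.41 without the block, the last without FoxD3-VP16 array 1. FoxD3-VP16 minus empty vector was -0.14, with an interval of -0.83 to 0.55 and an adjusted p of 0.959. Without the arrays numbered 1 no Tubb3 difference was called even with the block: 0.58 for FoxD3 against the empty vector (adjusted p = 0.0575) and -0.53 between the constructs (adjusted p = 0.0543).

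Map2 (1434194_at, chr1:66175202-66442583) encodes a microtubule-stabilizing protein of dendrites. The log2 levels were 7.69, 7.97, 7.95 and 8.18 in FoxD3-VP16 cells, 6.64, 7.63, 7.15 and 7.19 in FoxD3 cells, and 8.18, 8.0, 7.39 and 7.55 in empty vector cells. Every FoxD3-VP16 array lay above every FoxD3 array, while the FoxD3 and empty vector arrays overlapped. Map2 thus stood the other way from Tubb3. The difference between FoxD3-VP16 and FoxD3 was 0.80 (95% interval 0.24 to 1.35, limma adjusted p = 0.0720), called with the block (adjusted p = 0.0220), in 4 of 4 pairs, and called without the block when FoxD3 array 2 was left out (adjusted p = 0.0448). FoxD3 minus empty vector was -0.63 (95% interval -1.19 to -0.07, limma adjusted p = 0.235; 0.0818 with the block), negative in 4 of 4 pairs, and array 1 gave -1.55 against -0.37 to -0.24 in the other 3. Without the arrays numbered 1 that change was -0.35. FoxD3-VP16 minus empty vector was 0.17 (95% interval -0.39 to 0.72, limma adjusted p = 0.932). The other 3 Map2 probe sets were dim, and none of their changes passed the test. The mean of the 4 probe sets changed by 0.40 between the constructs, against 0.80 on the brightest (limma adjusted p = 0.462).

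**Figure D4:**
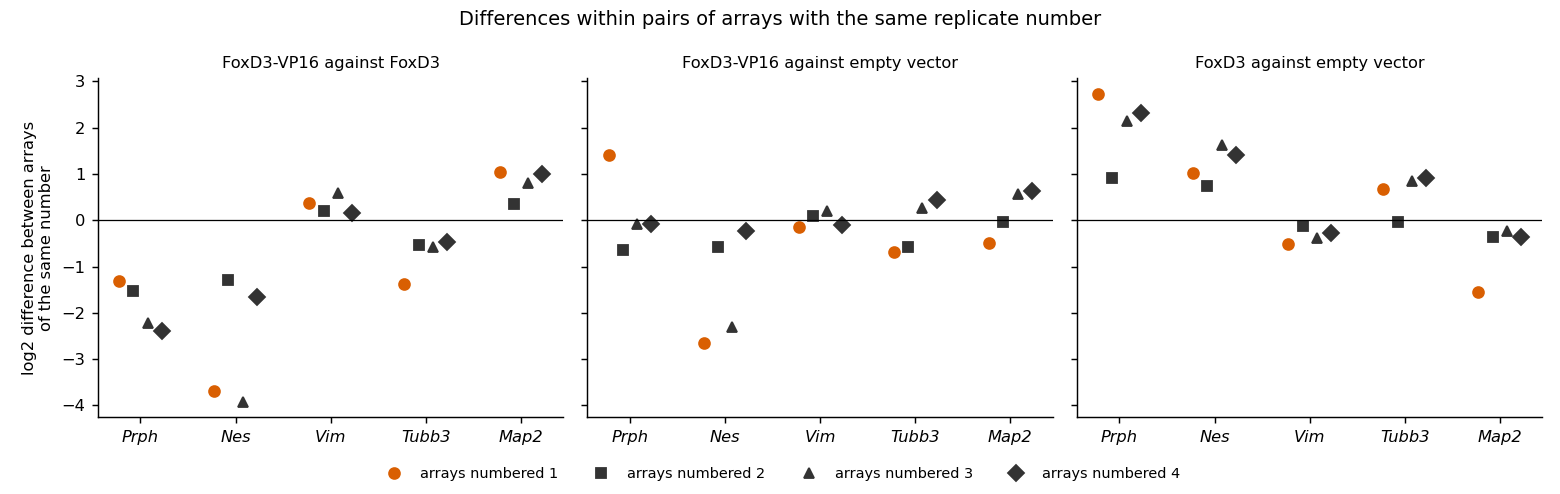
Log2 difference between arrays of the same replicate number for the 5 tested genes in the 3 comparisons, with the arrays numbered 1 in orange. All 4 points lie on one side of 0 for each gene between FoxD3-VP16 and FoxD3, and for Tubb3 in FoxD3 against the empty vector 3 of 4 do.

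The 3 neurofilament subunits, alpha-internexin and GAP43 were near the bottom of the measured range in all groups. Nefl, the light neurofilament subunit, had group means of 5.03, 4.80 and 4.79 in FoxD3-VP16, FoxD3 and empty vector cells on its brighter probe set 1454672_at. Nefm, the middle subunit, had means of 4.38, 4.63 and 4.74, and Nefh, the heavy subunit, 5.04, 5.53 and 4.66, in the same order of groups. Ina, the internexin subunit that joins neurofilaments in central neurons, had means of 5.89, 5.47 and 5.17 on 1418178_at, and Gap43 had 4.98, 4.43 and 4.46. All 5 were below the brightness limit and entered no gene test. On single arrays, Ina was above the limit on 2 of 12 by 1418178_at (FoxD3-VP16 array 1 and empty vector array 2) and on 1 of 12 by 1448991_a_at (empty vector array 1), and Nefh on 1 of 12 (FoxD3-VP16 array 4), while Nefl, Nefm and Gap43 were above it on none. Nefh had FoxD3 values of 4.90, 5.68, 5.56 and 5.97 against 4.29, 4.63, 4.25 and 5.46 in empty vector cells, a positive difference in 4 of 4 pairs that did not pass the test among all probe sets (log2 change 0.87, limma adjusted p = 0.590; 0.236 with the block). Among all probe sets, none of the 8 probe sets of these 5 genes passed in any comparison, with or without the block.

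Set against all genes, the counts were as follows. Prph is the gene that rose by limma with FoxD3, and it entered the test through the FoxD3 arrays. Wherever Prph is counted here or between the constructs, its part is a description only. For FoxD3 against the empty vector, 1 of the 5 tested genes rose and 0 fell by limma, where 2.89% of the 10916 tested genes rose and 1.12% fell. With the block 3 rose (Prph, Nes, Tubb3) and 1 fell (Vim), where the shares over all genes were 11.8% and 9.21%. The groups did not overlap for 2 of the 5, against 11.5% of all genes. Of the 23 probe sets, 0 passed, and 4 with the block, against 1.2% and 7.45% of all 34945 probe sets; at an unadjusted p under 0.05, Prph 1422530_at, Nes 1449022_at and 1453997_a_at and Map2 1434194_at passed.

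For FoxD3-VP16 against the empty vector, no tested gene rose or fell by limma (Nes alone had an unadjusted p under 0.05), where 0.522% of all genes rose and 0.0733% fell. With the block 0 rose and 1 fell (Nes), against 5.73% and 5.41%. The groups overlapped for all 5, where 5.71% of all genes had groups that did not. Of the 23 probe sets 0 passed with or without the block, against 0.134% and 3.09% of all probe sets; Nes 1449022_at alone had an unadjusted p under 0.05 without it. For FoxD3-VP16 against FoxD3, 0 rose and 2 fell (Prph, Nes), where 4.44% of all genes rose and 5.13% fell. With the block 2 rose (Vim, Map2) and 3 fell (Prph, Nes, Tubb3), against 14.6% and 17.5%. The groups did not overlap for 3 of the 5 (Prph, Nes, Map2), against 18.2%, and 2 of the 23 probe sets passed, and 8 with the block, against 3.29% and 12.9%.

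The other filament genes and the proteins that tie filaments to the rest of the cell were represented by 2 lists. Counts of these and all later lists are to be set beside the shares of all genes given above for the same comparison and fit. An unadjusted p under 0.05 was met by 1762 of the 10916 tested genes for FoxD3 against the empty vector. It was met by 1129 for FoxD3-VP16 against the empty vector and by 2516 between the constructs. Of 15 other intermediate filament and lamin genes, 5 were tested, and with FoxD3 Lmna, which encodes the nuclear lamins A and C, was higher than with the empty vector (log2 change 0.53, limma adjusted p = 0.0287). Between the constructs 0 rose and 2 fell, Lmna (-0.86, adjusted p = 0.000718) and the keratin gene Krt80 (-1.12, adjusted p = 0.0360). Lmna levels were 10.80, 11.10, 10.91 and 10.97 in FoxD3-VP16 cells, 11.64, 11.80, 11.89 and 11.88 in FoxD3 cells, and 11.19, 11.26, 11.22 and 11.44 in empty vector cells, with no overlap between any groups. Of the 10 linker genes, 6 were tested. Plec, which encodes plectin, the protein that joins intermediate filaments to actin and to adhesion sites, was higher with FoxD3 than with the empty vector (1.27, adjusted p = 0.00174).

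Plec levels were 9.87, 9.92, 9.72 and 9.70 in FoxD3-VP16 cells, 11.71, 11.16, 11.13 and 11.15 in FoxD3 cells, and 10.22, 10.32, 9.69 and 9.86 in empty vector cells, so the FoxD3 arrays stood alone above the rest. Between the constructs Plec fell (-1.49, adjusted p = 0.000270), as did Fam83h, a gene for a keratin-associated protein (-0.99, adjusted p = 0.0450), and Macf1, which links microtubules and actin, rose (0.61, adjusted p = 0.0118). No gene of either list was called by limma between FoxD3-VP16 and the empty vector without the block (1 filament or lamin gene and 0 linker genes had an unadjusted p under 0.05). With the block 1 filament or lamin gene fell and 1 linker gene rose there, beside 5.41% and 5.73% of all genes. For FoxD3 against the empty vector with the block, 2 filament or lamin genes rose and 0 fell. Of the linker genes 2 rose and 1 fell, beside 11.8% and 9.21% of all genes. The list medians were 0.12 and -0.03 for FoxD3 against the empty vector and -0.32 and 0.06 between the constructs, beside medians over all tested genes of -0.00 and -0.03.

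The microtubule genes were covered by a list of other tubulins and one of other microtubule-associated proteins. Of the 13 other tubulins on the array 12 were tested, and 0 passed limma's test in any of the 3 comparisons (1 had an unadjusted p under 0.05 for FoxD3 against the empty vector, 0 for FoxD3-VP16 against the empty vector and 2 between the constructs). With the block 1 rose and 1 fell with FoxD3 against the empty vector, beside 11.8% and 9.21% of all genes. Between the constructs 2 rose and 2 fell with the block, beside 14.6% and 17.5%. Among 21 tested genes of other microtubule-associated proteins, Map7d1, whose protein binds microtubules, was the only call against the empty vector with FoxD3 (0.53, adjusted p = 0.0406), beside 2.89% of all genes that rose there, and there was none in the other comparisons, where 2 (FoxD3-VP16 against the empty vector) and 7 (between the constructs) had an unadjusted p under 0.05. With the block, 5 of the 21 rose with FoxD3 against the empty vector, beside 11.8% of all genes, and 2 with FoxD3-VP16, beside 5.73%. With it 3 rose and 7 fell between the constructs, beside 14.6% and 17.5%. Among those that fell were Map1b, a microtubule protein of growing axons (-1.27, adjusted p = 0.00545 with the block and 0.270 without), and Mapt, the gene of tau (-0.80, adjusted p = 0.00567 with the block and 0.0556 without). The others were Map1lc3a (-0.62, adjusted p = 0.000300 with the block and 0.175 without), Map1s, Map7, Map7d1 and Mark4. Those that rose were Map4, Mapre2 and Clasp1. Map1b was at 5.28 on FoxD3-VP16 array 1, with the rest of that group at 8.24 to 8.50.

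In the growth cone list, 7 of 10 genes on the array were tested. Marcks and Marcksl1 encode membrane and actin-binding proteins of the MARCKS family. With FoxD3, Marcks RNA fell against the empty vector (-0.92, adjusted p = 0.00495) and Marcksl1 RNA rose (0.74, adjusted p = 0.0324). Marcksl1 differed by 0.60 between FoxD3-VP16 and the empty vector (adjusted p = 0.205, and 0.00145 with the block), in 4 of 4 pairs, and by -0.14 between the constructs (adjusted p = 0.714). Marcks levels were 13.19, 13.42, 13.14 and 12.85 in FoxD3-VP16 cells, 12.15, 12.61, 12.26 and 12.31 in FoxD3 cells, and 13.60, 13.23, 13.14 and 13.06 in empty vector cells, so every FoxD3 array was below all others. Between the constructs Marcks (0.81, adjusted p = 0.00563) and Dpysl3, a collapsin response protein gene (0.78, adjusted p = 0.00858), rose. Of 9 tested transport motor genes, the kinesin heavy chain gene Kif5b rose between the constructs (0.43, adjusted p = 0.0485). None was called in the other comparisons without the block, where 1 (FoxD3 against the empty vector) and 0 had an unadjusted p under 0.05. With the block 1 rose and 2 fell with FoxD3 against the empty vector, beside 11.8% and 9.21% of all genes. Kif5b was among those that fell (-0.48, adjusted p = 0.00204 with the block), with no overlap of these groups.

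**Figure D5:**
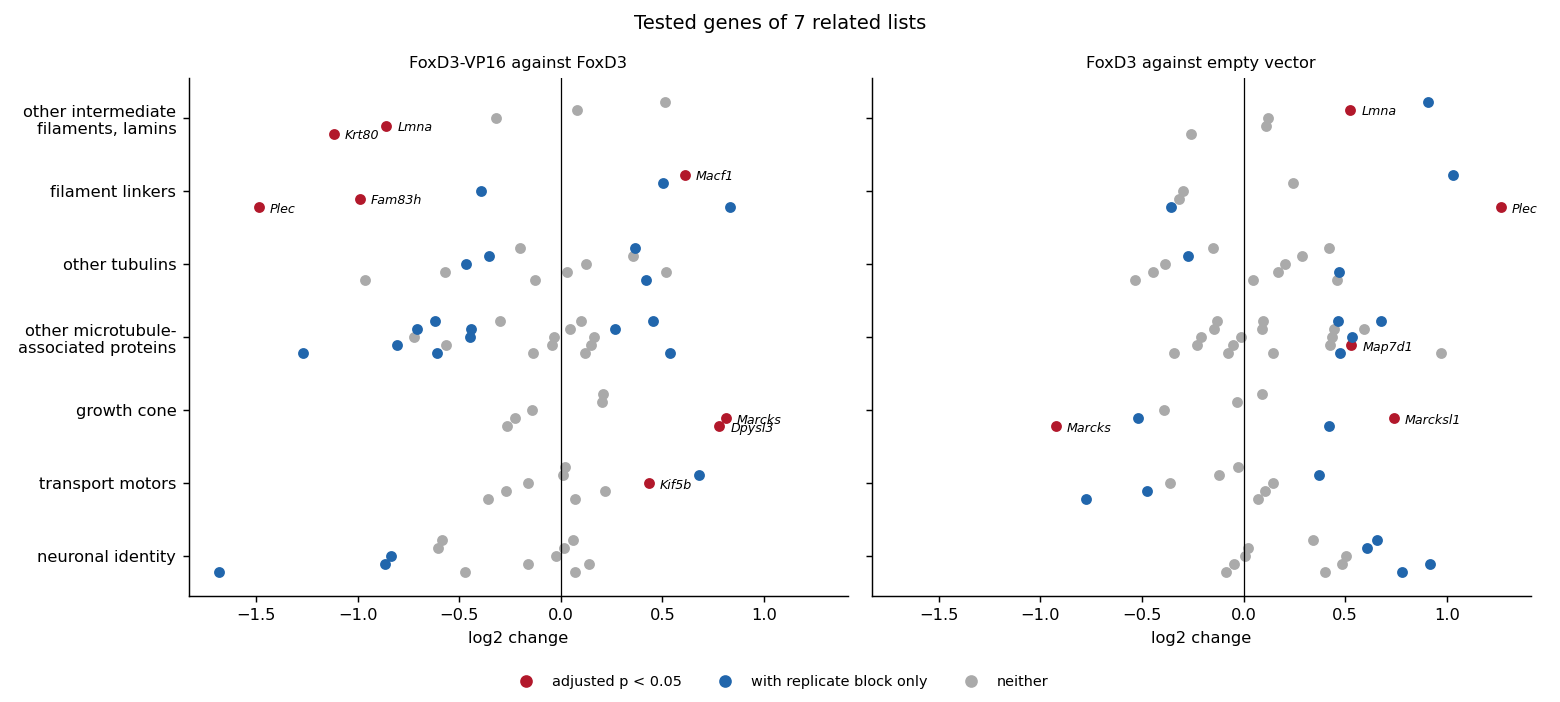
Log2 change of each tested gene of 7 related lists, for FoxD3-VP16 against FoxD3 and for FoxD3 against the empty vector; red points have a limma adjusted p under 0.05 and are named, blue points only with the replicate block. Plec and Lmna are to the left between the constructs and to the right with FoxD3 against the empty vector.

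Neuronal identity genes were mostly dim. Of the 31 on the array, 12 were tested and 0 passed limma's test in any comparison without the block; 1 had an unadjusted p under 0.05 for FoxD3 against the empty vector, 0 for FoxD3-VP16 against the empty vector and 3 between the constructs. With the block 4 of the 12 rose with FoxD3 against the empty vector, beside 11.8% of all genes. They were the synaptic fusion genes Stx1a (0.78, adjusted p = 0.000527) and Vamp2 (0.66, adjusted p = 0.0472), the neuronal enolase gene Eno2 (0.92, adjusted p = 0.0146) and the axon adhesion gene L1cam (0.61, adjusted p = 0.0253). Without the block their adjusted p-values were 0.191 to 0.546. Stx1a and Eno2 were higher with FoxD3 in 4 of 4 same-number pairs, and Vamp2 and L1cam in 3 of 4. Eno2 was at 6.55 on empty vector array 1, with the rest of that group at 9.14 to 9.51. Between the constructs Stx1a (-0.86), Eno2 (-1.68) and L1cam (-0.84) fell with the block (adjusted p = 0.000134, 0.000155 and 0.00264), and not without it (0.270, 0.117 and 0.184). Over all genes 17.5% fell there with the block. The list median was 0.44 for FoxD3 against the empty vector, beside -0.00 over all tested genes, and -0.32 between the constructs, beside -0.03.

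The line's own markers and those of other cells were read beside these results. All 10 melanocyte markers were above the limit, with array means of 13.21 to 13.25 in FoxD3-VP16 cells, 13.10 to 13.22 in FoxD3 cells and 13.31 to 13.47 in empty vector cells. Single melanocyte genes moved both ways. With FoxD3, Mitf, which encodes the regulator of pigment cell genes, fell against the empty vector (-1.09, adjusted p = 0.00483), and Sox10, a neural crest regulator gene that also stands in the glial list, rose (0.73, adjusted p = 0.00287). With the block 4 melanocyte genes fell there, Tyr, Tyrp1, Mitf and Gpr143, and 1 rose, beside 9.21% and 11.8% of all genes. With FoxD3-VP16, Sox10 alone fell against the empty vector without the block (-0.72, adjusted p = 0.0178). With the block Mitf (-0.43, adjusted p = 0.0282) and Tyrp1 (-0.25, adjusted p = 0.00920) fell there as well, and Mlana rose (0.17, adjusted p = 0.0444). Between the constructs Sox10 fell (-1.45, adjusted p = 1.52e-05) and Mitf (0.66, adjusted p = 0.0389) and Tyr, which encodes tyrosinase (0.89, adjusted p = 0.0360), rose. Of 10 glial and Schwann cell markers 9 were above it. Array means of the glial list were 9.42 to 9.90 in FoxD3-VP16 cells, 10.00 to 10.59 in FoxD3 cells and 9.22 to 10.05 in empty vector cells. With FoxD3, 4 rose (Cnp, Erbb3, Ngfr, Sox10) and 1 fell (Cdh19) against the empty vector, beside 2.89% and 1.12% of all genes. Between the constructs 1 rose and 4 fell, beside 4.44% and 5.13%. Ngfr had means of 5.20, 8.27 and 5.27 in FoxD3-VP16, FoxD3 and empty vector cells. It thus entered the test through the FoxD3 arrays, as Prph did, and its calls are read as a description. Of 10 fibroblast markers 6 were above the limit, with array means of 6.55 to 7.06 in FoxD3-VP16 cells, 6.87 to 7.04 in FoxD3 cells and 6.18 to 6.58 in empty vector cells. With FoxD3, 3 of the 6 rose against the empty vector (Col1a1, Col5a1, Pdgfrb) and 0 fell, with Col1a2 at -0.72 (adjusted p = 0.448) and Postn at -0.22 (adjusted p = 0.802). Over all genes 2.89% rose there. Col1a1 had means of 6.19, 7.80 and 5.12 in FoxD3-VP16, FoxD3 and empty vector cells. All its empty vector arrays lay below the limit, so its rise is likewise read as a description. With FoxD3-VP16, Pdgfrb (1.60, adjusted p = 0.0240) and Postn (2.21, adjusted p = 0.00312) rose against the empty vector, and between the constructs Postn rose (2.42, adjusted p = 0.000187) and Col5a1 fell (-1.15, adjusted p = 0.0275). Keratinocyte markers were below the limit in 7 of 7, leukocyte markers in 5 of 8 and endothelial markers in 7 of 8. These melanocyte, glial and fibroblast changes lie in the same arrays as those of Prph and Nes, and their part in them was not tested.

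Nes had the largest range of group means among the tested genes (2.64). The genes whose levels ran most like it over the 12 arrays were Zbtb7a (Pearson r = 0.90), Spcs2 (r = 0.89) and Mapk12 (r = 0.89), which share with it the same arrays, their groups and their replicate numbers. Zbtb7a, a transcriptional repressor gene, was at 5.99, 7.69, 6.82 and 7.53 in FoxD3-VP16 cells, 8.24, 8.01, 8.56 and 8.50 in FoxD3 cells, and 7.70, 7.39, 6.93 and 7.38 in empty vector cells. As with Nes, FoxD3-VP16 arrays 1 and 3 were the lowest of the 12 and the FoxD3 arrays the highest.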

How the data were processed

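The values deposited by the authors are linear intensities per probe set, made with MAS5 per the submitters' processing notes, with no version given in the sources used here. Their mean, trimmed by 2% of probe sets at each end, was 500.003 to 500.004 on all 12 arrays. Detection calls were not used here. From these values log2(intensity + 16) was computed, so changes of dim genes are understated, and quantile normalization was applied because array medians spanned 0.79 (limit 0.5). The 64 control probe sets were left out. Symbols came from the platform annotation: 34945 probe sets had 1 symbol, 932 several and 9160 were not listed. The brightest probe set stood for each of 18193 genes, and 10916 genes remained after the lowest 40% by mean were left out.

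The 3 comparisons were fitted with limma 3.58.1 (lmFit, eBayes with an intensity trend) in R 4.3.3 over all 12 arrays without a block (9 residual and 3.98 prior degrees of freedom), with Benjamini-Hochberg adjustment over all tested genes and a threshold of 0.05. The fit with the replicate number as a block had 6 residual and 7.30 prior degrees of freedom. The numbers pair the samples by the correlation of deviations given in the report; the labels do not say what they share. Precision is limited by how many arrays there are. The fit without the block was tested on simulated data with noise drawn independently for each array. Those data held no effect of replicate number, and the fit with the block was not tested on them.

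The genes, the 13 gene lists beside them and the tests were chosen with earlier results of these data known. All 10 genes and their probe sets are named, and of each list up to 4 called genes per comparison with the smallest adjusted p; genes named for a call with the block alone, and the marker genes listed by name, were chosen after their values were seen. Positions and promoters are RefSeq's on GRCm38.p6. Plots used matplotlib 3.10.9 (Python 3.11.15).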

Additional observations from a re-analysis of the deposited data

Results flagged for a closer look

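In a group of 4 arrays, a value was looked at again where its gap to the nearest of the others exceeded Dixon's 95% critical share of the group's range. This was met by 9 of the 69 groups of the 23 probe sets, where chance gives about 1 in 20. Of the probe sets above the brightness limit, array 1 stood apart in 4 groups and array 3 in 1. Tubb3 was at 8.15 on FoxD3-VP16 array 1, with the others at 9.41 to 9.54. Vim was at 14.06 on FoxD3 array 1 by 1438118_x_at (others 13.58 to 13.60), at 14.35 on FoxD3 array 1 by 1456292_a_at (others 13.50 to 13.62), and at 14.11 on empty vector array 1 by 1450641_at (others 14.62 to 14.69). Nes was at 8.92 on FoxD3 array 3 by 1418289_at (others 8.67 to 8.71). The remaining values were of dim probe sets: Map2 at 5.85 on FoxD3 array 3 by 1421327_at (others 4.16 to 4.18), and Gap43 at 4.10 on FoxD3-VP16 array 2 (others 5.18 to 5.33), 5.10 on FoxD3 array 3 (others 4.11 to 4.26) and 5.49 on empty vector array 2 (others 4.07 to 4.15).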

How the results depend on the processing

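The 2 calls of Prph are read as a description. That of FoxD3 against the empty vector was lost with a pseudocount of 1 (2.98, adjusted p = 0.0964) and among all probe sets (2.03, adjusted p = 0.0547). That between the constructs was lost with a pseudocount of 1 (-2.25, adjusted p = 0.154). Taken as the mean of its probe sets, Prph fell below the brightness filter and was not tested. Leaving out each array in turn gave Prph log2 changes of 1.57 to 2.32 for FoxD3 against the empty vector and -2.16 to -1.68 between the constructs. With the replicate block, calls were gained for FoxD3 against the empty vector by Nes (1.20), Vim (-0.31, also among all probe sets with the block) and Tubb3 (0.60), for FoxD3-VP16 against the empty vector by Nes (-1.44), and between the constructs by Vim (0.33) and Tubb3 (-0.74), both also among all probe sets with the block, and Map2 (0.80). With array weights, calls were gained by Nes (1.34), Vim (-0.32), Tubb3 (0.88) and Map2 (-0.35) for FoxD3 against the empty vector, by Map2 (0.50) for FoxD3-VP16 against the empty vector, and by Vim (0.35), Tubb3 (-0.57) and Map2 (0.85) between the constructs. Other gains were Nes with FoxD3 against the empty vector by the mean of its probe sets (0.97), Map2 between the constructs with the values as deposited (0.81), and, without the arrays numbered 1, Vim (0.26) and Map2 (0.76) between the constructs with or without the block; Vim in FoxD3 against the empty vector (-0.22) was gained then with the block only, an alternative chosen after seeing the data. Map2 ranged over 0.63 to 0.95 between the constructs as each array was left out.

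Directions turned only between FoxD3-VP16 and the empty vector, where the changes were small: Prph to -0.0238 with array weights, -0.27 without the arrays numbered 1 (with or without the block) and -0.33 without empty vector array 1 (range -0.33 to 0.45 as each array was left out), Vim to -0.0732 as deposited, -0.0190 by the mean of its probe sets and -0.12 to 0.19 as arrays were left out, and Tubb3 to 0.31 with array weights, 0.0451 without the arrays numbered 1 (with or without the block) and -0.29 to 0.20 as arrays were left out. The cause was not tested.

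Counts of called genes for FoxD3 against the empty vector (438), FoxD3-VP16 against the empty vector (65) and FoxD3-VP16 against FoxD3 (1045) were 2297, 1217 and 3498 with the block, 2605, 1079 and 4513 among all probe sets with the block, 4193, 3465 and 4455 with array weights, 870, 277 and 1815 without the arrays numbered 1, and 1991, 1439 and 3355 without them and with the block. With the lowest 60% of genes left out the first count was 274, and Prph, Nes and Map2 were not tested. As each array was left out the counts were 197 to 555, 13 to 82 and 602 to 1214. Leaving out FoxD3 array 3 or 4 or empty vector array 3 or 4 lowered the first by over 1.5 times, FoxD3-VP16, FoxD3 or empty vector array 3 or 4 the second, and FoxD3-VP16 or FoxD3 array 3 or 4 the third. Dim signals limit what can be said of Nefl, Nefm, Nefh, Ina and Gap43.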
